A study of Homo sapiens with 6 samples.

Results

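Direct target genes of Wnt/β-catenin signalling were examined in HepG2, an established human liver cancer line that the labels describe as hepatocellular carcinoma. The 10 genes, AXIN2, LGR5, DKK1, SP5, TNFRSF19, NKD1, ZNRF3, RNF43, TCF7 and NOTUM, were listed by name because HepG2 carries activated β-catenin, and they were set against all 19866 protein-coding genes of the RefSeq gene table (GRCh38 patch 14). Chromatin had been profiled by CUT&Tag, in which a transposase is tethered to an antibody and inserts adapters into nearby DNA. The 3 antibodies recognised H4K12la (histone H4 lactylated at lysine 12), HDAC1 (a histone deacetylase) or ENO1 (enolase 1, a glycolytic enzyme), and the series asked how the enzymes relate to histone lactylation and gene transcription. Each antibody had 2 replicate libraries, 6 in all. The labels name no treatment or genetic change of the cells, and they do not state whether replicates were separate cultures.

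In the absence of a Wnt signal, a cytoplasmic destruction complex built on AXIN and APC marks β-catenin for degradation. When Wnt proteins bind Frizzled and LRP receptors, or when mutation removes the sites by which β-catenin is recognised, as in HepG2, it accumulates, enters the nucleus and joins TCF/LEF factors on DNA. Without β-catenin these factors are known to hold Groucho/TLE corepressors, which recruit histone deacetylases. Many direct targets encode brakes on the pathway itself, and in liver the pathway is known for setting gene expression around the central vein.

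The peak lists held 1189 to 7568 peaks on the 24 chromosomes. Fold enrichment, the authors' value for each peak, is the signal at the summit over the peak caller's background in that library, and it is read here within a list. Read depth is unknown, so a gene without a peak may still hold signal below the calling threshold. That threshold is not stated, and the lists start just above a -log10 q of 2.00 (a q value of 0.01). With 2 libraries a target no permutation over samples can pass 0.05, and no test is given. Counts over the 10 genes are set beside the same share over all protein-coding genes.

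The start regions of 3 of these genes are shown first, because HDAC1 peaks of both replicates covered them at DKK1 and SP5 and reached the first of the TNFRSF19 starts, and because they show what TCF/LEF letters are there. Each is the run of 250 bases before an annotated start, from RefSeq (GRCh38 patch 14), 5′ to 3′. The second TNFRSF19 start, covered by HDAC1 in replicate 1 only and by H4K12la in replicate 2 only, is shown for comparison. Capitals mark the letters CTTTGAA or CTTTGAT or CTTTGTA or CTTTGTT, which contain the core that TCF/LEF factors bind, on either strand (in reverse complement TTCAAAG or ATCAAAG or TACAAAG or AACAAAG). The table held start windows for 5 of the 10 genes, and AXIN2, LGR5, NKD1, ZNRF3 and NOTUM are named only.
DKK1, chr10:52314031-52314280, plus strand: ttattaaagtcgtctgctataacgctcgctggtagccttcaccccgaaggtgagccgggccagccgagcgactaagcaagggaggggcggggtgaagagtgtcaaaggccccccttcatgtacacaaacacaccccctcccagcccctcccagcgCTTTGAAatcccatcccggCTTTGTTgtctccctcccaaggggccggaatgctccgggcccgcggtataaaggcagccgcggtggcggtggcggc
SP5, chr2:170715087-170715336, plus strand: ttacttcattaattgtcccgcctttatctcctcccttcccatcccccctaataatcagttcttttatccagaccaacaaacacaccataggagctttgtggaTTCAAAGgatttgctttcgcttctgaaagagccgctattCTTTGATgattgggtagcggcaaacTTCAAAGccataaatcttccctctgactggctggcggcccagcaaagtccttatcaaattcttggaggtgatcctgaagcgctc
TNFRSF19, first start, chr13:23570162-23570411, plus strand: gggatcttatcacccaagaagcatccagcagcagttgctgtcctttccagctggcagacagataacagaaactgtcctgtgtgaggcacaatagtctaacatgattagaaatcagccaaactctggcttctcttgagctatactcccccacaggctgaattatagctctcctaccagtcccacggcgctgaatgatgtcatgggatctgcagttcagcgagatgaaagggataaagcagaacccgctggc
TNFRSF19, second start, chr13:23579110-23579359, plus strand: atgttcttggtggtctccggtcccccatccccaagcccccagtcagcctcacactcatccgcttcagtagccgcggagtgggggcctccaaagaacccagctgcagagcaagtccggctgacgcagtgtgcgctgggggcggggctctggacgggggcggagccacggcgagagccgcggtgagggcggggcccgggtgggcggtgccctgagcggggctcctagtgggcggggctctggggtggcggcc

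SP5 held 3 matches, which began 148, 109 and 84 bases before the start, and DKK1 held 2, at 95 and 76 bases. Neither TNFRSF19 window held one. Of 22199 such windows of protein-coding genes, 9.91% held at least 1 match, 0.847% held 2 or more and 0.0766% (17 windows) held 3 or more. Windows of the other genes with an HDAC1 peak at a gene end in both replicates held a match in 7.55% of 2000 cases. Of the 8 windows of the 5 genes, 3 held a match, the other being the second of TCF7's 2 windows, with AACAAAG at 50 bases. The windows were unlike in base composition. G and C made up 62.8% of the DKK1 window, 45.6% of the SP5 window, and 49.6% and 72.4% of the TNFRSF19 windows, against a median of 62.0% over all windows and 64.0% over those of the other HDAC1 genes. A match of letters is a description and not a bound site. The genes were listed as direct targets of a pathway that acts through TCF/LEF factors, so the matches are not independent of that choice.

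HDAC1 lay at the ends of most of the 10 genes, H4K12la at a pair of them and ENO1 at none. A gene end here is a window of 1 kb to either side of each annotated end. Both HDAC1 replicates had a peak there at 6 of 10 genes (60.0%; AXIN2, LGR5, DKK1, SP5, TNFRSF19 and NKD1), where 8.18% of all protein-coding genes did. Taken singly, HDAC1 replicate 1 had 7 genes, with ZNRF3 added, against a share of 14.8% of all genes, and replicate 2 had the same 6 against 10.1%. H4K12la was at 2 of 10 genes, DKK1 and LGR5, in both replicates (10.5% of all genes) and in each replicate singly (13.5% and 19.5% of all genes in replicates 1 and 2). For ENO1 the count was 0 of 10 in both replicates (0.0654% of all genes) and in each (0.166% and 0.101%). H4K12la and HDAC1 together, in all 4 libraries, occurred at DKK1 and LGR5 and at 3.18% of all genes.

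The HDAC1 and H4K12la counts depended on weak peaks. At a -log10 q of 5 or more in both replicates HDAC1 was at SP5, DKK1 and TNFRSF19 only. That is 3 of 10, against 6.31% of all genes. Among the 1189 peaks of highest -log10 q in each library the HDAC1 count was 0, against 1.47%. H4K12la was at 0 of 10 under both settings, against 6.11% and 1.16% of all genes.

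**Figure D1:**
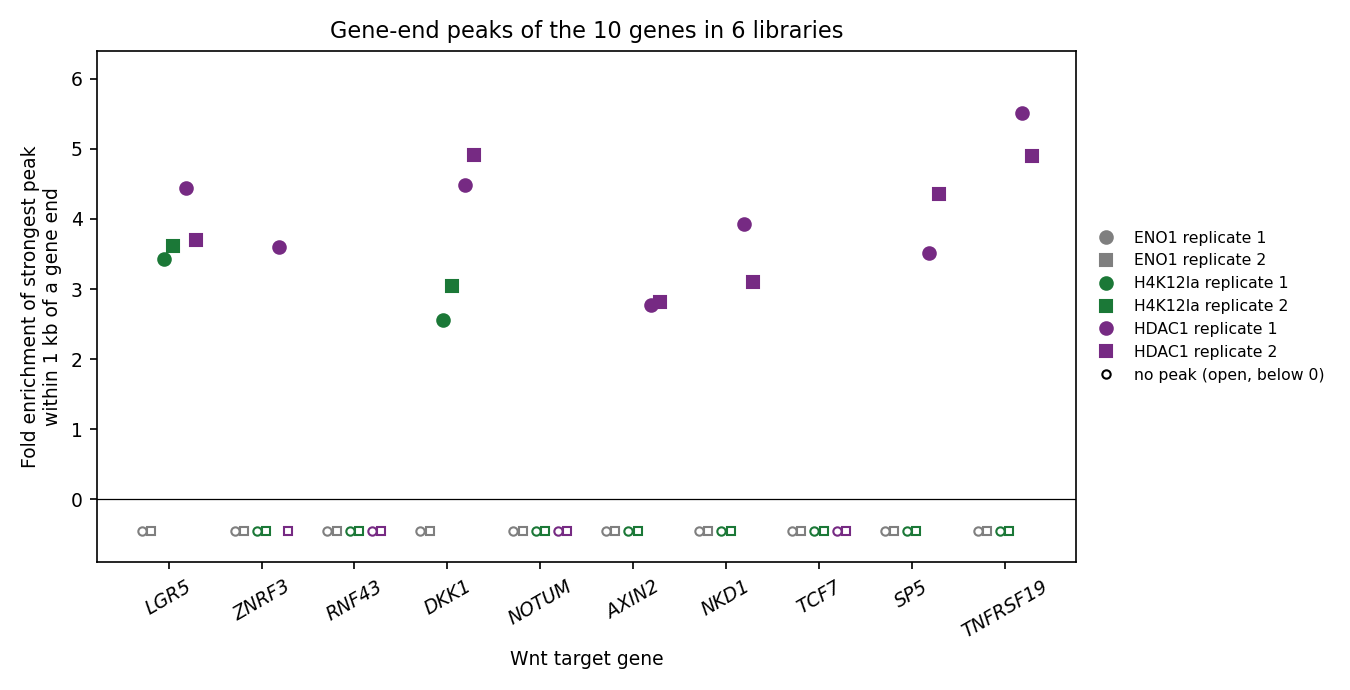
Fold enrichment (y axis, over the peak caller's background) of the strongest peak within 1 kb of a gene end, for each of the 10 genes (x axis) and each library (colour for target, circle for replicate 1, square for replicate 2), with open symbols under the zero line where no peak was called. HDAC1 symbols stand at 7 genes between 2.77-fold and 5.51-fold, H4K12la symbols at LGR5 and DKK1 only, and every ENO1 symbol is open.

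Among the membrane regulators, LGR5 carried HDAC1 and H4K12la together, ZNRF3 had a single HDAC1 peak at its end, and RNF43 had HDAC1 inside the gene. LGR5, a receptor for R-spondins and a marker of Wnt-driven stem cells, spans chr12:71439129-71586310. HDAC1 reached 4.44-fold (-log10 q 8.15) in replicate 1 and 3.70-fold (-log10 q 3.99) in replicate 2, with summits 486 and 176 bp inside its lower-coordinate end. H4K12la reached 3.43-fold and 3.62-fold (-log10 q 3.25 and 3.91), with summits 485 and 892 bp inside that end. The peaks of all 4 libraries merged into 1 place, chr12:71439181-71440189, and the summits of HDAC1 and H4K12la in replicate 1 lay 1 bp apart. A further HDAC1 peak of replicate 1 (4.06-fold) had its summit 1954 bp inside the gene, and no other peak of any library lay in the gene or within 50 kb of it.

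ZNRF3 and RNF43 are ubiquitin ligases that remove Frizzled receptors from the cell surface. At ZNRF3 (chr22:28883572-29057488) the gene-end peak was seen in HDAC1 replicate 1 alone, at 3.60-fold with a -log10 q of 3.26 and a summit 96 bp outside the lower-coordinate end. H4K12la had 1 peak 18.5 kb outside that end in replicate 1 (4.12-fold) and 2 peaks inside the gene in replicate 2 (3.35-fold and 3.64-fold, summits 121263 and 147537 bp from that end). No place at ZNRF3 was shared by replicates, although both H4K12la replicates had a peak within 50 kb. RNF43 (chr17:58352500-58417534) had 1 place, chr17:58391216-58392057, where HDAC1 reached 3.88-fold and 4.27-fold (-log10 q 5.42 and 7.34). Both replicates thus marked the RNF43 body, and neither of its annotated starts had a peak within 1 kb in any library.

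The secreted antagonists differed: DKK1 had the most peaks of the 10 genes, 10 in all, whereas NOTUM had none at its ends or in its body. DKK1, which blocks the LRP co-receptors, spans chr10:52314281-52317657. HDAC1 reached 4.49-fold (-log10 q 13.4) and 4.91-fold (-log10 q 14.2), with summits 6 bp after and 29 bp before the start, so that the replicate summits lay 35 bp apart. This put the summit of replicate 2 inside the DKK1 window printed above, downstream of both capital runs. H4K12la was weaker within its own lists, at 2.56-fold and 3.04-fold (-log10 q 3.47 and 5.40), which ranked at percentiles 0.449 and 5.67 of the genes with a gene-end peak in those lists. Its replicate peaks shared 93 bp (19.1% of the shorter peak) and their summits lay 394 bp apart.

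Away from the DKK1 gene, H4K12la had a place in both replicates 5.09 kb before the start (chr10:52308424-52309195, 3.92-fold and 4.03-fold) with no HDAC1 peak. A second, chr10:52365622-52366189, 48.0 kb past the other end, held H4K12la at 4.48-fold and 5.86-fold and HDAC1 at 6.0-fold in replicate 1 only. Both places had DKK1 as their nearest protein-coding gene. A peak of H4K12la replicate 2 alone (4.08-fold) lay 29.8 kb past the gene. The strongest H4K12la values around DKK1 were therefore outside the gene and not at its start.

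NOTUM, an enzyme that inactivates Wnt proteins by removing their lipid, spans chr17:81952507-81961187. All 7 peaks near it were of HDAC1, 4 in replicate 1 and 3 in replicate 2, in 5 places 6.30 to 38.8 kb past its higher-coordinate end. The 2 places with both replicates, chr17:81991848-81992494 (2.59-fold and 3.26-fold) and chr17:82000030-82001309 (2.78-fold and 2.67-fold), lay inside ASPSCR1, a neighbouring gene. Of the 5 places near NOTUM only the one at 6.30 kb, in replicate 1 (3.0-fold), had NOTUM as its nearest gene.

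Both intracellular brakes had HDAC1 at an end in both replicates and no H4K12la peak within 50 kb. SP5, RNF43 and NOTUM also lacked H4K12la within 50 kb. In either replicate H4K12la was thus within 50 kb of 5 of 10 genes, near the share of 53.9% over all genes. AXIN2, a scaffold of the destruction complex, spans chr17:65528563-65561648. HDAC1 was 2.77-fold and 2.81-fold (-log10 q 4.78 and 4.23) just outside its higher-coordinate end, and both replicates had the summit at the same base, 243 bp beyond that end. These were among the weakest values of their lists, at percentiles 0.848 and 0.748 of the genes with a gene-end peak. A second HDAC1 place of both replicates lay 26.4 kb beyond the same end (chr17:65588090-65588872, 3.77-fold and 4.32-fold).

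The ENO1 peaks within 50 kb of the 10 genes, 2 in all, shared a place at AXIN2. It lay 28.2 kb outside the lower-coordinate end, at chr17:65499940-65500370. ENO1 was 6.66-fold and 4.98-fold there (-log10 q 10.9 and 6.26), percentiles 63.3 and 32.7 of all peaks in its lists. HDAC1 replicate 1 had 8.17-fold at this place (-log10 q 18.8), the highest HDAC1 value around any of the 10 genes and percentile 93.1 of its list. Neither HDAC1 replicate 2 nor any H4K12la library had a peak there. Over all protein-coding genes, 1.57% had ENO1 within 50 kb in both replicates and 4.51% in either replicate, so 1 gene of 10 is a single case.

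NKD1, which binds Dishevelled and dampens the signal, spans chr16:50548396-50649249. HDAC1 was 3.93-fold (-log10 q 8.84) and 3.10-fold (-log10 q 3.79), with summits 383 and 889 bp outside the lower-coordinate end. The replicate peaks shared 339 bp but their summits were 506 bp apart, and with windows of 500 bp the gene dropped out. Inside the gene, HDAC1 of both replicates marked chr16:50579395-50579926, whose summits lay 31297 and 31379 bp from that end (3.76-fold and 3.61-fold). One more peak of replicate 1 (3.0-fold) lay 15146 bp inside.

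Of the transcription factors, SP5 had HDAC1 at its start and nothing else within 50 kb, and TCF7 had no peak found in both replicates of a target. SP5, a zinc finger repressor that is among the most widely shared Wnt targets, spans chr2:170715337-170718078. HDAC1 was 3.52-fold (-log10 q 10.3) and 4.36-fold (-log10 q 13.7), in peaks 1254 and 1404 bp wide, the broadest at any of these gene ends. The summits lay 380 and 509 bp before the start, upstream of the printed SP5 window, all 250 bases of which were under the peak in both replicates. TCF7, a TCF/LEF factor, spans chr5:134108218-134148210. A peak of H4K12la replicate 2 (4.18-fold) lay 5795 bp inside it, within 1 kb of the end of VDAC1, an overlapping gene for a mitochondrial channel. A peak of HDAC1 replicate 1 (5.78-fold) lay 28.5 kb beyond TCF7, at the end of SKP1, a ubiquitin ligase subunit gene.

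TNFRSF19, a receptor of the tumour necrosis factor family also called TROY, spans chr13:23570412-23676093 and had the highest gene-end HDAC1 values by the lower of both replicates. They were 5.51-fold (-log10 q 8.57) and 4.90-fold (-log10 q 6.33), and both replicates had the summit at the same base, 27 bp after the first annotated start. The peaks covered the last 177 and 157 bases of the first printed TNFRSF19 window. At the second start, 8.95 kb further in, HDAC1 replicate 1 had a peak of 5.86-fold with its summit 120 bp after the start, and H4K12la replicate 2 had one of 3.99-fold with its summit 316 bp before it. Replicate 2 of HDAC1 and replicate 1 of H4K12la had none, so the second start had no target in both replicates. H4K12la of both replicates (5.11-fold and 4.39-fold) and HDAC1 replicate 1 (4.20-fold) also marked chr13:23715104-23716104, 39.0 kb beyond the gene and nearer to MIPEP. A peak of H4K12la replicate 2 alone (3.61-fold) lay 50747 bp inside TNFRSF19.

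**Figure D2:**
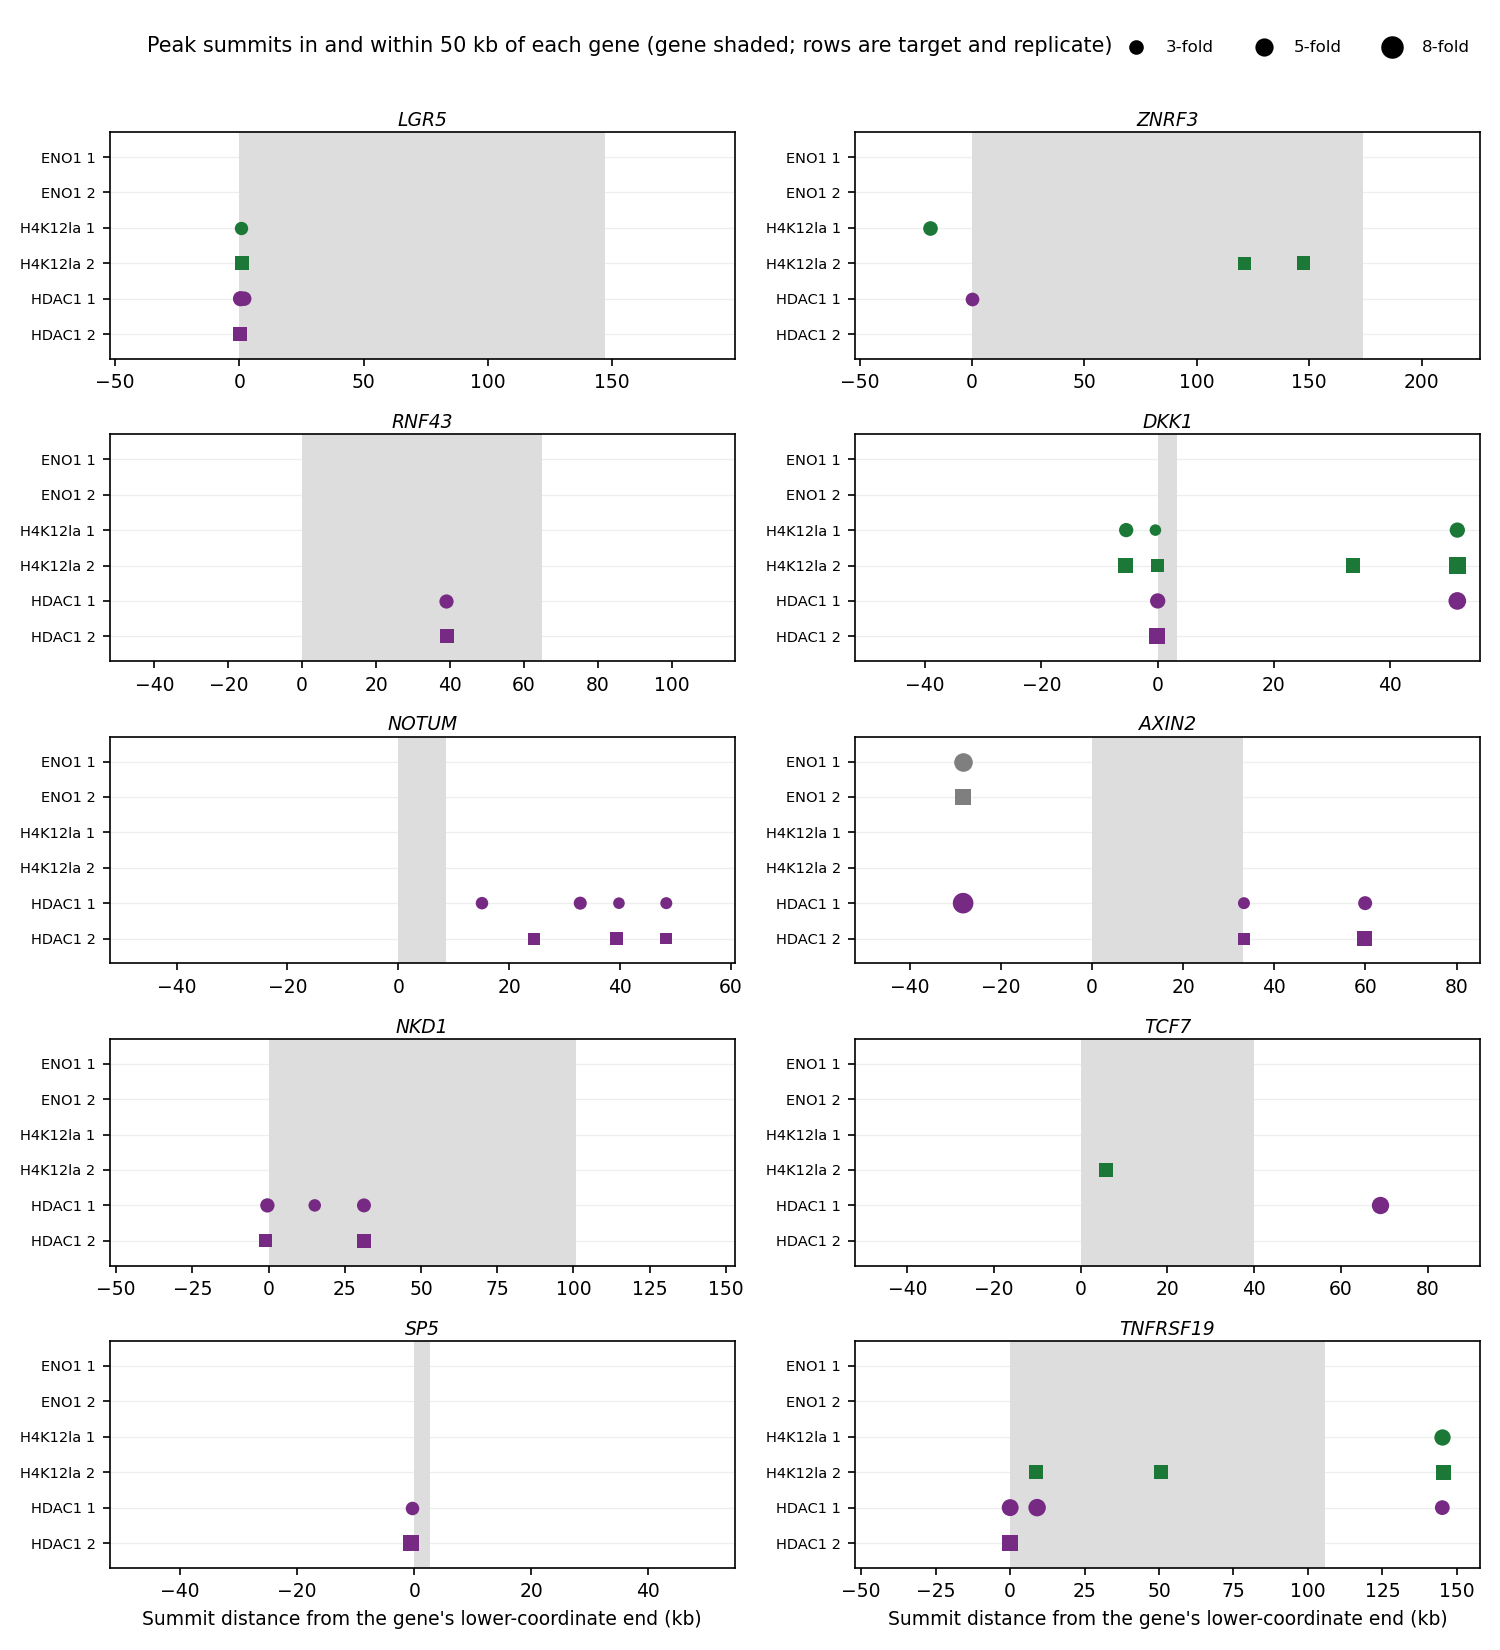
Summits of all 52 peaks in or within 50 kb of the 10 genes, 1 panel a gene, by distance in kb from the gene's lower-coordinate end (x axis; gene shaded) and by library (y axis), with symbol area proportional to fold enrichment. HDAC1 summits of both replicates line up at gene ends in 6 panels, the ENO1 summits are both 28.3 kb outside AXIN2, and the NOTUM panel has HDAC1 outside the gene only.

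In the order of mean HDAC1 fold at gene ends, TNFRSF19 (5.20 ± 0.430, SD, n = 2) was followed by DKK1 (4.70 ± 0.299), LGR5 (4.07 ± 0.528), SP5 (3.94 ± 0.592), NKD1 (3.51 ± 0.592) and AXIN2 (2.79 ± 0.0311). Fold is not scaled between libraries, so each SD also holds any difference between the 2 lists. The replicate values overlapped between neighbours in this order, except between DKK1 and LGR5, where they were 4.49-fold against 4.44-fold at the nearest, and between NKD1 and AXIN2. AXIN2 was the lowest of the 6 in both lists, and the top of the order was TNFRSF19 in replicate 1 and DKK1 in replicate 2. In fold, these were modest peaks compared with other genes. By q value, none of the 10 genes had gene-end HDAC1 among the 1189 highest peaks of each list in both replicates. The median over all genes with a gene-end HDAC1 peak was 4.73-fold in replicate 1 (2949 genes) and 4.76-fold in replicate 2 (2006 genes). In replicate 1, 6 of the 7 genes lay below that median and TNFRSF19 above it, and in replicate 2, 4 of 6 lay below it, with DKK1 and TNFRSF19 above.

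The genes whose 6 libraries were most like those of TNFRSF19 were BRD8 and KIF20A, neighbours on chromosome 5 with identical values, and RHEBL1. Likeness was the Euclidean distance over the 6 libraries between percentile ranks of the strongest gene-end peak, with 0 for no peak, and came to 3.56 points for BRD8 and for KIF20A and 4.99 points for RHEBL1. BRD8 and KIF20A had HDAC1 at 5.69-fold and 4.92-fold and RHEBL1 at 5.74-fold and 4.82-fold. Like TNFRSF19, none of the 3 had a gene-end peak of H4K12la or ENO1. Both the near HDAC1 values and these absences follow from choosing genes by this distance, and are no separate result.

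Away from the gene ends, both HDAC1 replicates shared places in the body of NKD1 and RNF43 and in the flanks of AXIN2 and NOTUM. Those of NOTUM lay inside ASPSCR1. For such shared places, the share over all protein-coding genes was not computed. The 52 peaks fell into 29 places, where peaks sharing at least 1 bp are counted as 1: 7 at gene ends, 9 in gene bodies and 13 in the flanks, of which 6 were nearer to another gene. HDAC1 made up 33 of the peaks, H4K12la 17 and ENO1 2. Both HDAC1 replicates shared 11 places, 6 of them at gene ends, 2 in bodies (NKD1 and RNF43) and 3 in flanks. Both H4K12la replicates shared 5 places, 2 at gene ends, 0 in bodies and 3 in flanks.

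Counted by gene with the ends included, HDAC1 lay in the gene or within 50 kb in both replicates at 8 of 10, all but ZNRF3 and TCF7, against 26.4% of all protein-coding genes. Of these 8, LGR5, DKK1, SP5 and TNFRSF19 had both replicates at their ends alone. In either replicate it was at 10 of 10, against 44.8%. H4K12la was at 4 of 10 in both replicates (30.8% of all genes) and at 5 of 10 in either (53.9%), shares near those of all genes. In the body, away from the ends, HDAC1 was at 2 of 10 (2.76% of all genes), H4K12la at 0 of 10 (4.61%) and ENO1 at 0 of 10 (0.393%). The 10 genes have a median length of 52.5 kb against 24.5 kb over all protein-coding genes, and a longer gene offers more room for peaks in its body. The part of gene length in these shares was not tested.

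**Figure D3:**
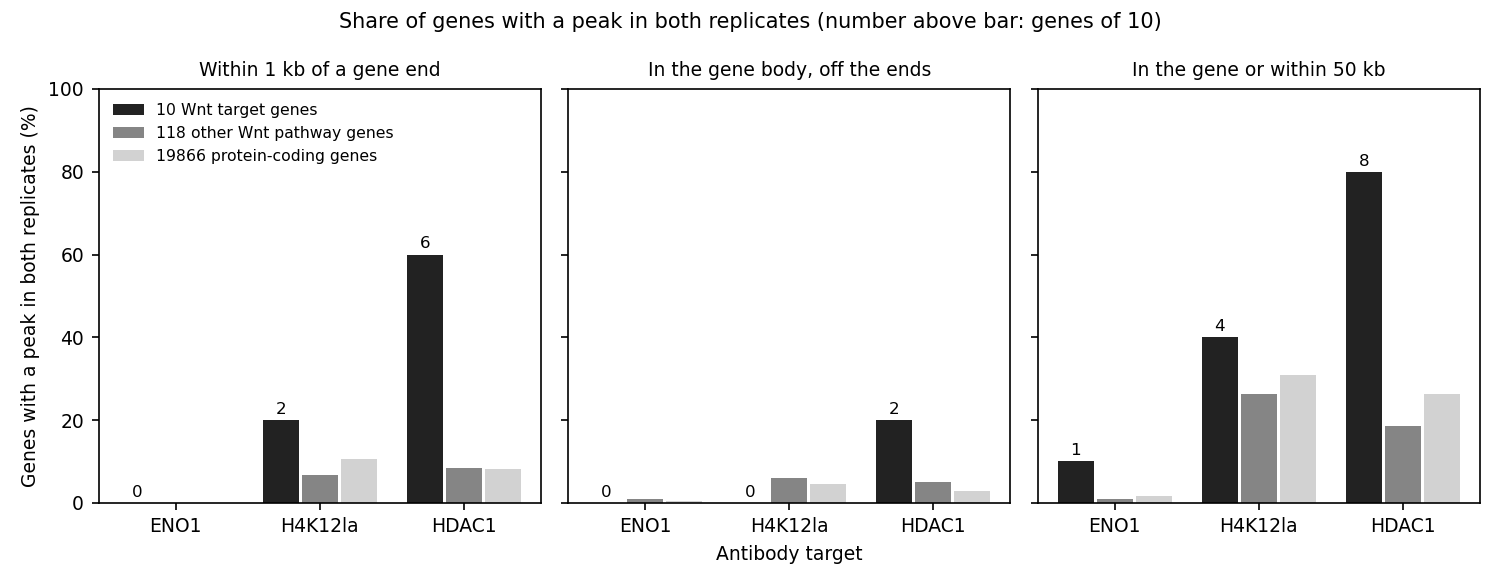
Share of genes (y axis, percent) with a peak in both replicates, for each antibody target (x axis), at gene ends, in the gene body and within 50 kb, for the 10 Wnt target genes (black; number of genes above the bar), 118 other Wnt pathway genes (mid grey) and 19866 protein-coding genes (light grey). The HDAC1 bars of the 10 genes stand at 60.0%, 20.0% and 80.0%, and those of the other pathway genes at 8.47%, 5.08% and 18.6%.

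The remaining machinery of the pathway was followed in 7 lists of 118 genes. HDAC1 was at a gene end in both replicates of 10 of them (8.47%) and H4K12la at 8 (6.78%), close to or below the shares of 8.18% and 10.5% over all genes, and ENO1 at 0. Of the 19 Wnt ligand genes and the 6 for ligand secretion and R-spondins, none had any target at an end in both replicates. The share of all genes with any of the targets was not computed, so this absence has no matching background. Of 17 receptor genes, HDAC1 was at FZD4 (4.72-fold and 4.66-fold) and FZD5 (3.74-fold and 4.24-fold), both Frizzled receptors. Of 16 inhibitor genes, DKK4, a relative of DKK1, had H4K12la (3.55-fold and 3.98-fold).

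The cytoplasmic list, which holds the destruction complex, had the most H4K12la, at 5 of 19 genes (26.3%), against 10.5% of all genes. Among them CTNNB1, the gene of β-catenin, had 4.78-fold and 4.12-fold, and it also had HDAC1 in replicate 1 alone (4.93-fold). TNKS, a tankyrase that promotes AXIN breakdown, had H4K12la at 4.24-fold and 6.61-fold, and FBXW11, a ubiquitin ligase subunit that recognises β-catenin, at 4.85-fold and 4.08-fold. HDAC1 was at 3 of these 19 (15.8%), against 8.18% of all genes. They were the kinase genes GSK3B (8.17-fold and 4.98-fold), CSNK1A1 (6.04-fold and 4.85-fold) and GSK3A (5.45-fold and 4.20-fold). The lists were chosen with earlier results of these data known, and no list was tested against all genes.

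Of 18 nuclear factor genes, HDAC1 marked the corepressors TLE4 (5.22-fold and 4.85-fold) and TLE1 (4.71-fold and 4.22-fold) and the chromatin remodeller CHD8 (5.37-fold and 4.49-fold). H4K12la marked the acetyltransferase gene EP300 (3.68-fold and 4.34-fold) and CHD8 (3.19-fold and 3.71-fold). The shares of the 18 were 16.7% for HDAC1 and 11.1% for H4K12la, against 8.18% and 10.5% of all genes. Of 23 further target genes, HDAC1 was at JUN (4.30-fold and 4.08-fold) and MYC (4.54-fold and 3.27-fold), both growth-related transcription factors, and H4K12la at 0. The HDAC1 share was thus 60.0% over the 10 genes and 8.70% over these 23. The 10 were listed when earlier results of these data were known, and the difference was not tested.

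**Figure D4:**
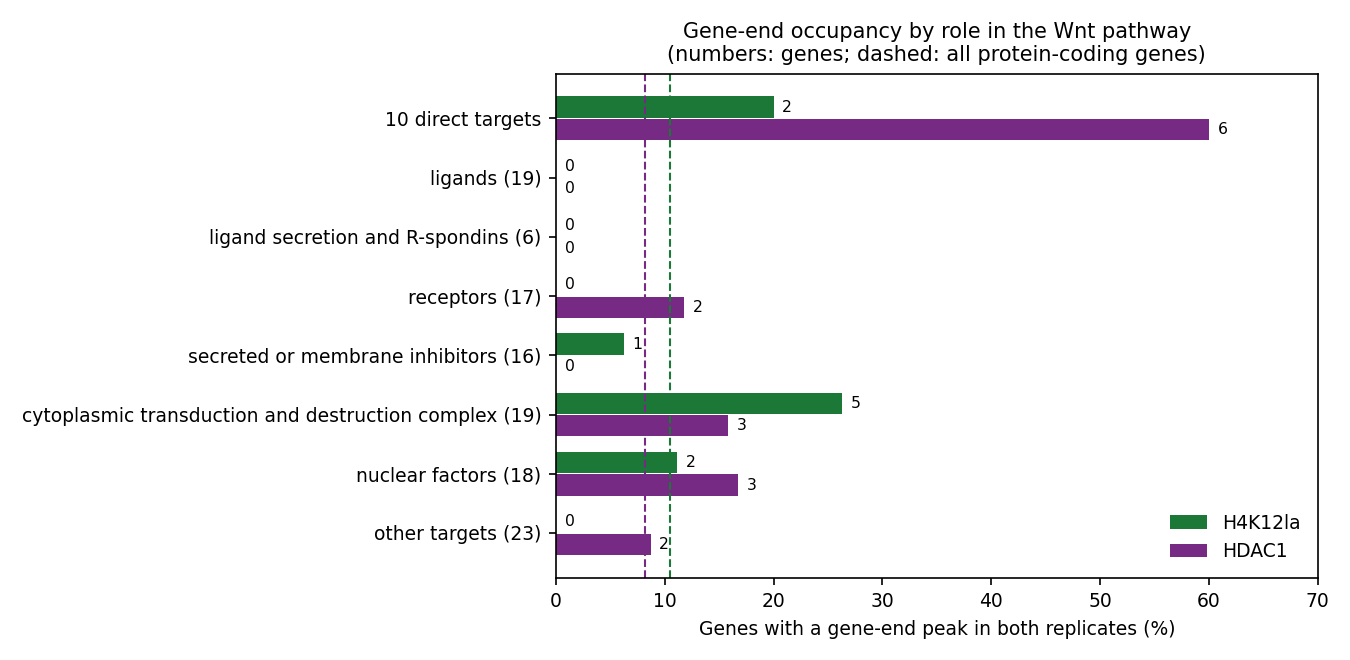
Share of genes (x axis, percent) with a gene-end peak in both replicates for H4K12la (green) and HDAC1 (purple), by role in the Wnt pathway (y axis; list size in brackets, number of genes beside each bar), with dashed lines at the shares of all protein-coding genes, 10.5% and 8.18%. HDAC1 reaches 60.0% at the 10 direct targets and at most 16.7% in any other list, and H4K12la is highest in the cytoplasmic list at 26.3%.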

How the data were processed

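CUT&Tag libraries of ENO1, H4K12la and HDAC1, 2 each, were grouped by their titles. Per the submitters' processing notes, FastQC, Bowtie2, MACS2 and deepTools were used with build hg38; their versions and settings, and whether a control was used, are not stated in the labels. The authors deposited 1 narrow peak list per library, with the fold enrichment of each summit as a ratio to background in that library and the -log10 of its q value; neither is scaled between libraries. The lists start just above a -log10 q of 2.00, so weaker signal is unseen, and lists of unequal length find unequal numbers of genes.

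Peaks on chromosomes 1 to 22, X and Y were joined to RefSeq genes (GRCh38 patch 14), leaving out entries on other sequences that carry a chromosome's name. A gene counted when a peak touched 1 kb around either end (the gene table gives no strand), its body, or 50 kb around it. Exons were not used. The code (Python 3.11.15, pandas 2.3.3) was tested on simulated data. Named were the 10 genes, the top 3 of each pathway list and target by the lower fold of both replicates, CTNNB1, the nearest genes of peaks, and the 3 genes most like TNFRSF19. The genes, lists and rules were chosen with earlier results of these data known, so no test was run on them. Alternatives covered the windows, the q threshold, summits, replicate overlap, gene starts, list length and each replicate.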

Additional observations from a re-analysis of the deposited data

How the results depend on the processing

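The HDAC1 gene-end count of 6 became 3 at a -log10 q of 5 or more (6.31% of all genes). It became 3 when only annotated starts were used (6.62%), which were known here for 5 of the 10 genes and 15843 of all 19866. Genes without a known start were counted as having no peak, so the count and the share are not lowered alike. With each list cut to its 1189 peaks of highest -log10 q, the HDAC1 gene-end count became 0 (1.47%). The HDAC1 count within 50 kb then fell from 8 to 0 (5.84%). The H4K12la gene-end count of 2 became 0 at the stricter q (6.11% of all genes) and 0 with equal lists (1.16%). It became 1 with starts only (8.68%), and 1 where replicate peaks had to overlap by 50% of each other (7.98%, DKK1 dropped out). The H4K12la count of 4 within 50 kb became 2 at the stricter q (18.3%) and 0 with equal lists (4.11%). The ENO1 count of 1 within 50 kb became 0 within 25 kb (1.02% of all genes). Among the 118 other pathway genes, H4K12la went from 8 to 3 at the stricter q (6.11% of all genes). With either replicate alone H4K12la was at 13 to 14 (13.5% and 19.5%), and HDAC1 went from 10 to between 13 and 20 (10.1% and 14.8%). Equal lists and fewer starts leave fewer peaks or genes by construction. No fit with the replicate number as a block was made, since no result comes from a test. Unknown depth limits every absence stated here.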
